A study of Mus musculus with 20 samples.

Results

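The collapsin response mediator proteins (CRMPs) are encoded by 5 genes, Crmp1 and Dpysl2 to Dpysl5, whose rows were taken by symbol from a table of 32245 gene symbols and followed through 20 libraries. The libraries hold ribosome-associated poly-adenylated RNA that came down with tagged ribosomes from hippocampus, and the labels name granule cells as the cell type. All groups share 1 genotype, Rbp4-Cre:RiboTag, in which cells that express Cre from the Rbp4 driver carry an HA epitope on the ribosomal protein RPL22. They differ in age, with 5 libraries of postnatal day 5 (P5) and 3 of each later age, namely P7, P10, P15, P21 and P28. The labels also name 3 batches, here A, B and C. Of the P5 libraries 3 were made in batch A, together with P10 and P15, and 2 in batch B, together with P7; batch C comprised P21 and P28. Whether the libraries of 1 age stem from different animals is not stated in the labels, and the p-values then describe the spread between libraries, which may be technical.

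CRMPs are cytosolic phosphoproteins of growing neurons that bind tubulin dimers and microtubules and assemble as tetramers. The family was named for its role in the collapse of the growth cone by semaphorin 3A, which acts through neuropilin and plexin receptors and ends in phosphorylation of CRMPs by kinases such as Cdk5 and Gsk3b, and this lowers their affinity for tubulin. Their sequence resembles that of dihydropyrimidinase, an enzyme of pyrimidine breakdown, although CRMPs are not known for that activity. In the dentate gyrus most granule cells are born and extend their mossy fibre axons in the first weeks after birth, and CRMPs mark young neurons there.

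RefSeq promoter windows (GRCm38.p6, the same assembly as mm10) were found for only 2 of the 5 genes, both on chromosome 5, and those found are printed. Each window runs from 250 bases before to 50 after an annotated start, 5′ to 3′ on the + strand of the gene. Capitals mark GGGCGG (a GC box) and ACAAAG (the core of SOX and TCF sites) on either strand.
Dpysl5, chr5:30711314-30711613: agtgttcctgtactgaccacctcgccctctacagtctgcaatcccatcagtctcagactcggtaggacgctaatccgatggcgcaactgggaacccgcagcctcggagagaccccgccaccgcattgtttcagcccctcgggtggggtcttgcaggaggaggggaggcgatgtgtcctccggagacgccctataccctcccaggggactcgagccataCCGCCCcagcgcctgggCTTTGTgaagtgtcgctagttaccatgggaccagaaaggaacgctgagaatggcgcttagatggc
Crmp1, first start, chr5:37241808-37242107: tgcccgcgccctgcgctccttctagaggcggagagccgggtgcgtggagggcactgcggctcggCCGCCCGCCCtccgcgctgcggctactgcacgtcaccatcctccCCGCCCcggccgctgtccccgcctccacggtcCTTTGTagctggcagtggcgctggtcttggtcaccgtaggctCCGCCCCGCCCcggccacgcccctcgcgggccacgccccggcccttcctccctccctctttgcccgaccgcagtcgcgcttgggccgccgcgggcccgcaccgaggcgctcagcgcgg
Crmp1, second start, chr5:37245514-37245813: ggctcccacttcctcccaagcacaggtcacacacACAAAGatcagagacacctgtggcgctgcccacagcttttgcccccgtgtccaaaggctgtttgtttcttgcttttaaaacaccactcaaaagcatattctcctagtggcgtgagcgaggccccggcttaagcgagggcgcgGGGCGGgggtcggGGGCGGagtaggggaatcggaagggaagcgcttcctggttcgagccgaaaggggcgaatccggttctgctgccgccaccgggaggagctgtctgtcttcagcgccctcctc
The windows have a GC content of 61.0%, 77% and 61.0% in that order, against a median of 52.7% over 32851 windows of the same length, and hold 19, 41 and 20 CpG dinucleotides against a median of 7. GGGCGG matched at 1, 5 and 2 places, and 35.7% of all windows hold it. ACAAAG matched once in each, and 18.7% of all windows hold it. Of the other motifs searched on both strands, AACAAT (SOX type) matched once in the Dpysl5 window and is in 10.7% of all windows, and TGACGT (the cAMP response element core) matched once at the first Crmp1 start and is in 7.5%. CAGCTG and CAGATG (E-boxes) and TTGGCA (of the NFI type), which do not overlap the other motifs in letters, had no match, and 16.3%, 17.2% and 14.1% of all windows hold them. A match describes letters in the window and not a bound site.

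The summed level of the 5 genes fell from P5 to P21. The scale was CPM (read counts scaled to 1 M reads per library) divided by the length of all exons in kb, and levels on it depend on the length used. The sum was 814 ± 30.5 (SD, n = 5) at P5 and 563 ± 49.4 (n = 3) at P7. By P10 it had reached 276 ± 38.5 and by P15 188 ± 10.6, and it stood at 135 ± 1.71 at P21 and 132 ± 1.74 at P28. The libraries of neighbouring ages did not overlap in this sum until P21 and P28, whose ranges of 133 to 137 and 131 to 134 did. The lowest count of any member was 758 reads, for Dpysl3 in 1 P21 library. All 5 passed the filter on low counts that left 15373 genes for testing.

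**Figure D1:**
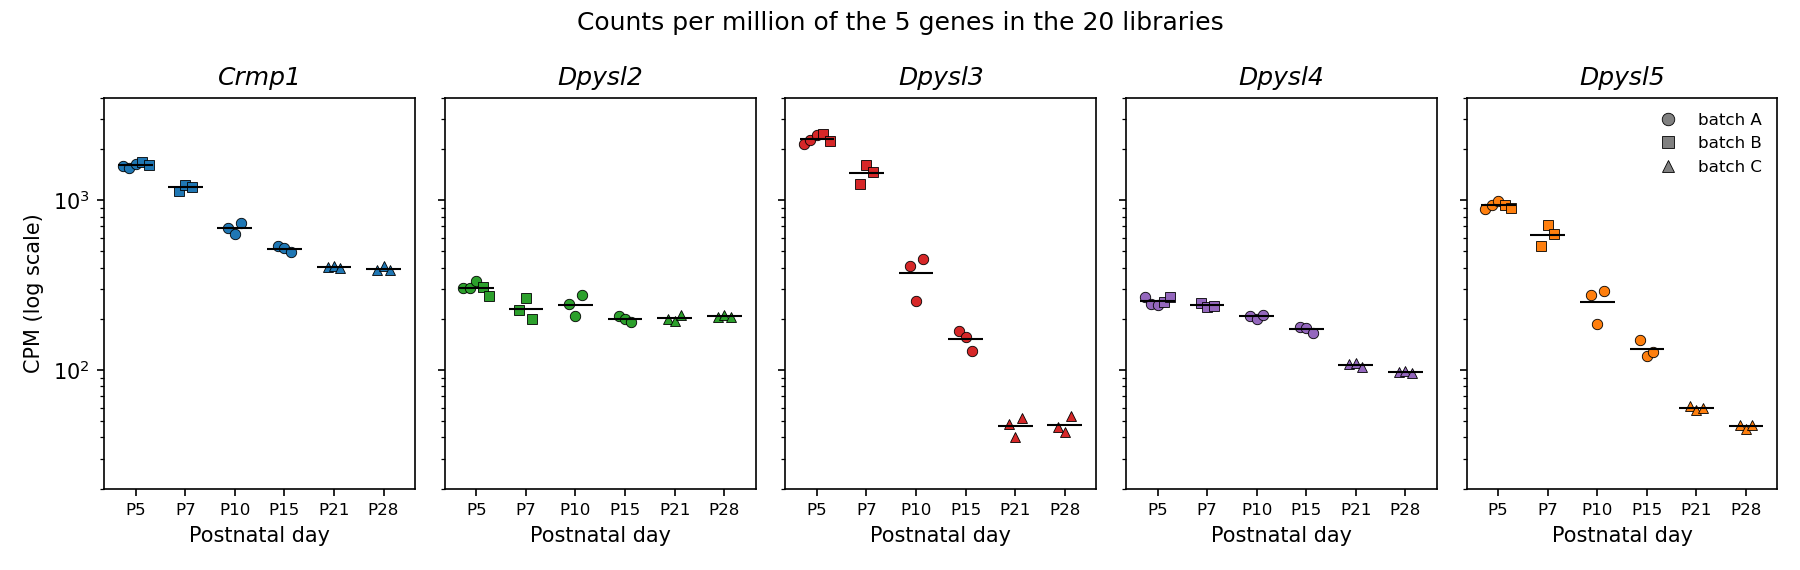
CPM (log axis) of each gene in each of the 20 libraries against postnatal age. Points are libraries, shapes are batches and lines are means of an age; Dpysl3 and Dpysl5 run from 2302 and 931 CPM at P5 to 47.6 and 46.5 at P28, while Dpysl2 stays between 193 and 332 CPM in all libraries.

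Dpysl3 (CRMP4), which bundles actin and binds microtubules in growth cones, had the steepest fall. Its gene lies on the minus strand of chromosome 18 (mm10, 43320984 to 43438286; GENCODE vM21 gene ENSMUSG00000024501.20). The 3 P5 libraries of batch A had 2139, 2250 and 2417 CPM and the 2 of batch B had 2459 and 2246. At P7 the values were 1250, 1618 and 1463, and at P10 they were 409.6, 256 and 451. They fell to 170, 157 and 130 at P15, and lay at 48.3, 40.5 and 52.4 at P21 and at 46.0, 43.3 and 53.4 at P28. No library of any age up to P21 overlapped one of the age before it, whereas P21 and P28 overlapped. At P15 the gene was at 6.72% of its P5 level in batch A, a log2 change of -3.90 (SE 0.20, 95% interval -4.32 to -3.47, adjusted p = 2.2e-10). Only 28 of the 15373 genes tested had a lower log2 change than Dpysl3 between these ages.

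Dpysl5 (CRMP5), a member that counters the growth-promoting action of CRMP2 on neurites, followed the same course. It lies on the plus strand of chromosome 5 (30711564 to 30799375; ENSMUSG00000029168.14), and the only annotated gene that overlaps it, Gm42764, lies within an intron on the same strand. Levels at P5 were 892, 938 and 986 CPM in batch A and 937 and 901 in batch B. They were 535, 716 and 628 at P7, then 277, 187 and 294 at P10. At P15 they were 150.4, 122 and 127, at P21 61.3, 58.2 and 60.0, and at P28 47.2, 45.0 and 47.1. Every age was free of overlap with the next, P21 and P28 included. The log2 change from P5 to P15 was -2.82 (SE 0.14, 95% interval -3.12 to -2.51, adjusted p = 7e-11), which left 14.2% of the P5 level.

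Crmp1, a mediator of semaphorin 3A signalling that is enriched in the nervous system, lost less in proportion and stayed well expressed. It lies on the plus strand of chromosome 5 (37241940 to 37292133; ENSMUSG00000029121.16) and overlaps Evc on the opposite strand, with no shared exon bases. Evc had a mean of 2.91 CPM over all libraries. At P5 Crmp1 stood at 1596, 1558 and 1627 CPM in batch A and at 1690 and 1609 in batch B. Values were 1138, 1224 and 1203 at P7, 689.5, 631 and 734 at P10, and 539, 525 and 492 at P15. They then lay at 404, 409.9 and 396.5 at P21 and 389, 409 and 387 at P28. Ages up to P21 did not overlap, and P21 and P28 did. From P5 to P15 the log2 change was -1.62 (SE 0.06, 95% interval -1.74 to -1.50, adjusted p = 4.7e-17).

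Dpysl4 (CRMP3) and Dpysl2 (CRMP2) changed least. The gene of Dpysl4 lies on the plus strand of chromosome 7 (139086001 to 139102704; ENSMUSG00000025478.15). Its P5 values were 268, 246 and 241 CPM in batch A and 251 and 268.5 in batch B, against 249, 234 and 237 at P7 and 208.5, 200.5 and 212 at P10. It was at 178, 176 and 165.5 CPM at P15, at 109, 109 and 104 at P21 and at 97.8, 98.4 and 96.4 at P28. Over all 5 P5 libraries P5 and P7 overlapped, and later neighbouring ages did not. Its log2 change from P5 to P15 was -0.54 (SE 0.05, 95% interval -0.65 to -0.43, adjusted p = 2.7e-09).

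Dpysl2 encodes CRMP2, the founding member, which carries tubulin dimers and promotes axon formation. Its gene is on the minus strand of chromosome 14 (66802864 to 66868688; ENSMUSG00000022048.8). At P5 it had 306, 305 and 332 CPM in batch A and 310.0 and 272 in batch B. The values were 225, 265 and 200.4 at P7, 244, 209 and 274.5 at P10, and 208, 199.8 and 193 at P15. They were 200.0, 193 and 212 at P21 and 206, 210.5 and 205.5 at P28, so from P15 on all 9 libraries lay between 193 and 212 CPM. The change from P5 to P15 was -0.65 on the log2 scale (SE 0.09, 95% interval -0.84 to -0.46, adjusted p = 2.3e-06), which left 63.7%.

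Within batch A all 5 genes were lower at P10 than at P5 and all 5 were lower at P15 than at P5 (edgeR quasi-likelihood test, Benjamini-Hochberg adjusted p under 0.05). These comparisons share the P5 libraries of batch A. Of all genes tested, 30.6% were lower at P10 and 31.8% at P15 by the same rule. Between P10 and P15, 4 of the 5 were lower, against 2.52% of all genes, and Dpysl2 did not pass (log2 change -0.28, 95% interval -0.47 to -0.09, adjusted p = 0.083). With batch A fitted alone the counts of members were the same, 5 for P10 against P5, 5 for P15 against P5 and 4 for P15 against P10.

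The fall of Dpysl3, Dpysl5 and Crmp1 was larger from P5 to P10 than from P10 to P15. The steps have equal length, 5 days, and their difference was fitted as a contrast of its own, chosen after the data had been seen. Both steps share the P10 libraries. Dpysl3 changed by -2.61 and then by -1.29 on the log2 scale, a difference of 1.32 (SE 0.31, adjusted p = 0.0047). Crmp1 changed by -1.22 and then by -0.40, a difference of 0.82 (SE 0.10, adjusted p = 6.9e-07), and Dpysl5 by -1.89 and then by -0.93, a difference of 0.97 (SE 0.24, adjusted p = 0.0051). Over all genes 15.4% had a second step higher than the first by this test. For Dpysl2 the difference was 0.10 (95% interval -0.23 to 0.42, adjusted p = 0.66) and for Dpysl4 0.03 (95% interval -0.16 to 0.21, adjusted p = 0.84).

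One P10 library stood low for the steep genes. P10 replicate 2 had 256 CPM of Dpysl3 where the other P10 libraries had 409.6 and 451, and it was also the lowest of its age for the other 4 members. Its 8 markers of immature neurons summed to 690.2 CPM against 1101 and 1110, and its 6 markers of CA pyramidal neurons to 236 against 793 and 642. At all other ages the CA pyramidal sum ran from 211 to 481 CPM, so in these markers the other P10 libraries stood high. The part of both sets of markers in the result was not tested. Without P10 replicate 2 the second step of Dpysl3 became -1.50 and Dpysl2 passed the test with -0.37 (adjusted p = 0.006). Dpysl2 also passed without P7 replicate 2 (adjusted p = 0.036) or P7 replicate 3 (adjusted p = 0.045), by DESeq2 (adjusted p = 0.047), and in no other alternative run. With P10 replicate 2 left out, the differences between the steps were 0.91 for Dpysl3 and 0.63 for Dpysl5, both still past the threshold. The largest adjusted p over all single libraries left out was 0.0099 and 0.01 in that order. The fall of Dpysl4 from P10 to P15 no longer passed without P10 replicate 3 (-0.24, adjusted p = 0.067) or without P15 replicate 3 (-0.22, adjusted p = 0.078).

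Between P5 and P7, compared within batch B, 4 of the 5 genes were lower, against 4.89% of all genes tested. Crmp1 changed by -0.47 on the log2 scale (SE 0.06, adjusted p = 2.8e-05), Dpysl3 by -0.70 (SE 0.19, adjusted p = 0.03), Dpysl5 by -0.55 (SE 0.15, adjusted p = 0.024) and Dpysl2 by -0.34 (SE 0.10, adjusted p = 0.031). Dpysl4 did not pass, with -0.11 (95% interval -0.23 to 0.00, adjusted p = 0.22). The call for Crmp1 held without each single library (largest adjusted p = 0.0027). Those for Dpysl3 and Dpysl5 were lost without P5 batch B replicate 1, P5 batch B replicate 3, P7 replicate 1 or P7 replicate 3, and that for Dpysl2 without these except P5 batch B replicate 3. With batch B fitted alone 3 of the 5 passed and Dpysl2 did not (-0.34, adjusted p = 0.12). The 3 calls other than Crmp1 were also lost without the filter on low counts (adjusted p = 0.05, 0.05 and 0.055 for Dpysl3, Dpysl5 and Dpysl2). P7 replicate 1, the lowest P7 library for Dpysl3 and Dpysl5, also had the lowest sum of immature neuron markers of its age, 1499 CPM against 1957 and 1718, and the part of that in the result was not tested.

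From P7 to P10, ages of different batches joined through the P5 libraries, 3 of 5 genes were lower, against 20.3% of all genes. They were Dpysl3 (log2 change -1.90, SE 0.27, adjusted p = 6.8e-05), Dpysl5 (-1.34, SE 0.20, adjusted p = 9.3e-05) and Crmp1 (-0.75, SE 0.08, adjusted p = 3.1e-07). Dpysl4 stood at -0.17 (95% interval -0.33 to -0.01, adjusted p = 0.085) and Dpysl2 at -0.04 (95% interval -0.32 to 0.24, adjusted p = 0.86). At P5 itself the batches could be compared. None of the 5 genes differed between B and A at an adjusted p under 0.05 by edgeR, DESeq2 or limma-voom. By edgeR 10.1% of all genes did, and with only 5 genes the absence of a call cannot be told apart from that share. None had an unadjusted p under 0.05 by edgeR either, and the share of all genes at that level was not counted. The differences of B minus A ran from -0.11 for Dpysl2 to 0.05 for Dpysl3, with 95% intervals inside -0.36 to 0.47.

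P21 and P28 form batch C, so a change from P15 to P21 cannot be told apart from a difference of batch. Across that step 4 of 5 genes were lower, against 14.8% of all genes. The log2 changes were -1.70 for Dpysl3 (SE 0.19, adjusted p = 1.5e-05), -1.15 for Dpysl5 (SE 0.14, adjusted p = 2.3e-05), -0.69 for Dpysl4 (SE 0.05, adjusted p = 1.5e-09) and -0.36 for Crmp1 (SE 0.06, adjusted p = 3.7e-05). Dpysl2 stood at 0.01 (95% interval -0.18 to 0.20, adjusted p = 0.94). For Dpysl4 this step (-0.69) is set beside -0.54 over the 10 days before it, and for Crmp1 -0.36 beside -1.62. Differences between these steps were not tested, because of the batch.

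Within batch C no clear fall was seen in Crmp1, Dpysl2 and Dpysl3. Dpysl4 and Dpysl5 had lower values at P28 that did not pass in the fit of all libraries. None of the 5 passed between P21 and P28 by edgeR, DESeq2 or limma-voom, and 0.189% of all genes were lower by the edgeR test. Dpysl4 (log2 change -0.14, unadjusted p = 0.017, adjusted p = 0.29) and Dpysl5 (-0.37, unadjusted p = 0.024, adjusted p = 0.32) had an unadjusted p under 0.05, and in both the P28 libraries lay below all P21 libraries. The shares of all genes with such a p or without overlap were not counted, so neither measure sets these genes apart. With batch C fitted alone Dpysl5 passed (adjusted p = 0.0047). The 95% intervals were -0.15 to 0.09 for Crmp1, -0.15 to 0.23 for Dpysl2 and -0.40 to 0.43 for Dpysl3. They lay below 0 for Dpysl4 (-0.25 to -0.03) and Dpysl5 (-0.67 to -0.06). Over the whole period, P28 against P5, all 5 were lower, against 36.4% of all genes, and this too joins batches. Dpysl3 changed by -5.58 (SE 0.21), Dpysl5 by -4.34 (SE 0.16), Crmp1 by -2.01 (SE 0.06), Dpysl4 by -1.37 (SE 0.05) and Dpysl2 by -0.60 (SE 0.09).

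**Figure D2:**
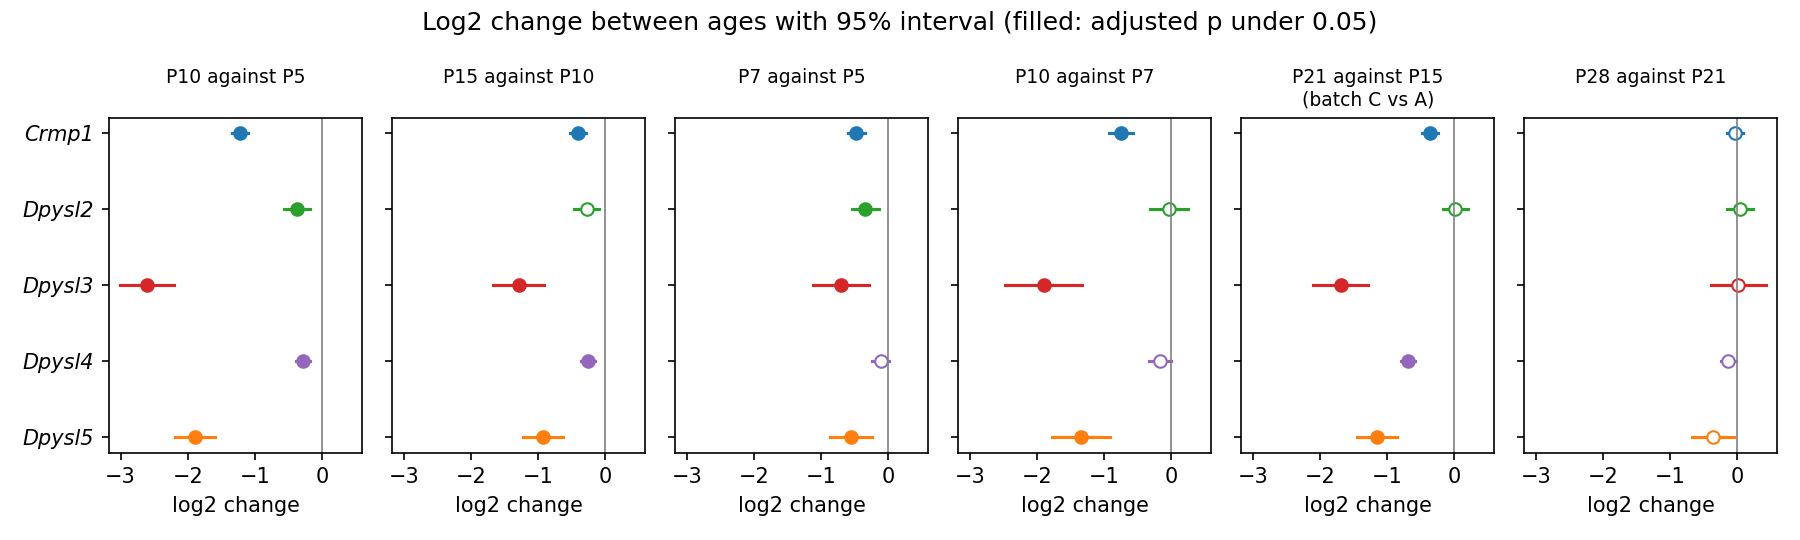
Fitted log2 change of each gene between ages, with its 95% interval; filled points have an adjusted p under 0.05. The interval of Dpysl2 crosses 0 from P7 to P10 and in both steps after P15, while Dpysl3 has the lowest value in each step up to P21, from -0.70 (P7 against P5) to -2.61 (P10 against P5).

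The members did not fall in parallel. Within batch A the log2 ratio of each pair of genes was set against age (P5, P10 and P15, 3 libraries each) in 10 exact permutation tests over 1680 assignments of libraries to ages. In 9 pairs p was 0.00357, the smallest this design can give (Benjamini-Hochberg adjusted 0.00397). The 10 ratios come from 5 genes and are not independent. How many pairs of other genes reach this p was not counted, and 63.4% of all genes differed between P15 and P5 by the edgeR test. Dpysl3 against Dpysl2 is the widest of the pairs with Dpysl2: the log2 ratio of Dpysl2 to Dpysl3 was -2.85 ± 0.04 (SD, n = 3) at P5, -0.59 ± 0.25 at P10 and 0.40 ± 0.15 at P15. Even the steep pair separated, with a log2 ratio of Dpysl3 to Dpysl5 of 1.27 ± 0.02, 0.55 ± 0.09 and 0.19 ± 0.17. The pair that did not pass was Dpysl2 and Dpysl4 (exact p = 0.479), with ratios of 0.32 ± 0.14, 0.22 ± 0.16 and 0.21 ± 0.02. That ratio was 0.91 ± 0.10 at P21 and 1.09 ± 0.01 at P28, in the other batch.

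Per kb of exons, Dpysl3 led the family at P5 and Crmp1 from P10 on. The P5 levels were 348 ± 20.1 CPM per kb for Dpysl3, 229 ± 6.88 for Crmp1, 126 ± 5.04 for Dpysl5, 67.5 ± 4.80 for Dpysl2 and 42.6 ± 2.14 for Dpysl4 (SD, n = 5), and no neighbours in this order overlapped. At P15 the order was Crmp1 (73.6), Dpysl2 (44.3), Dpysl4 (29.0), Dpysl3 (23.1) and Dpysl5 (18.0), where the ranges of Dpysl3 and Dpysl5 overlapped. At P28 it was Crmp1 (56.0), Dpysl2 (45.9), Dpysl4 (16.3), Dpysl3 (7.20) and Dpysl5 (6.30), and no neighbours overlapped. This order depends on the length used, since the genes have several transcripts and the counts do not separate them. With the longest coding transcript Crmp1 led at P5 too (530 against 420 for Dpysl3), and with the mean coding transcript likewise (979 against 722). With both of these Dpysl4 stood above Dpysl2 at P5 and at P15.

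Shares of the family sum, on the exon length, differed between P5 and P28 in the same way in all libraries, though these ages are of different batches. At P7 the libraries were less alike, and the share of Dpysl5 ran from 14.09% to 15.82%, against 14.95% to 15.95% at P5. Dpysl3 made up 42.8% ± 0.94 of the sum at P5 and 5.47% ± 0.65 at P28, and Dpysl5 15.5% ± 0.40 and 4.78% ± 0.19. Dpysl2 went from 8.29% ± 0.48 to 34.8% ± 0.12 while its own CPM was lower at P28 than at P5, and Crmp1 from 28.2% ± 0.65 to 42.5% ± 0.78. The share of Dpysl4 was 5.25% ± 0.42 at P5, 15.4% ± 0.35 at P15 and 12.4% ± 0.13 at P28. The size of each share moves with the length used, as does the order of the genes.

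**Figure D3:**
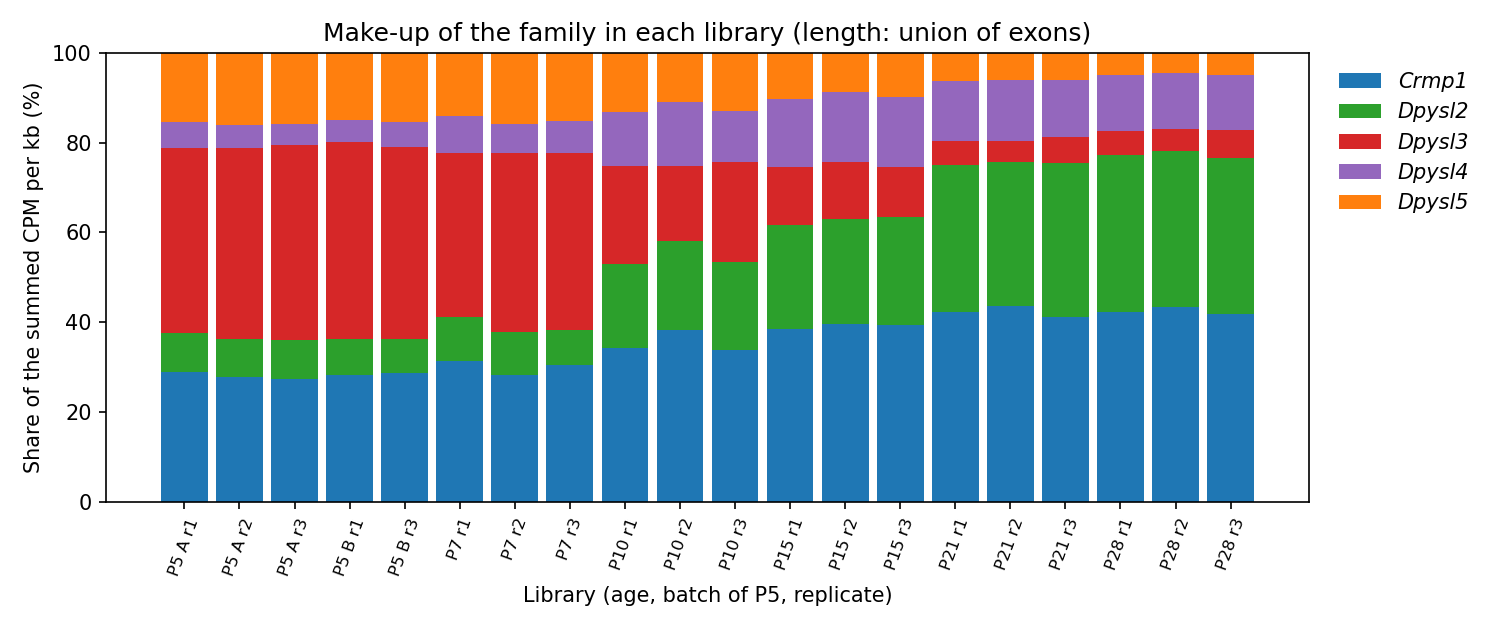
Share of each gene in the summed CPM per kb (length of all exons) in each library, in percent. Libraries are ordered by age; Dpysl3 shrinks from 42.8% at P5 to 5.47% at P28 and Dpysl2 grows from 8.29% to 34.8%.

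The same ages changed the cell markers of the libraries. All 8 markers of immature neurons were lower at P15 than at P5, and their sum ran from 2695 to 3233 CPM at P5, 515 to 671 at P15 and 428 to 445 at P28. The 8 progenitor markers, also all lower, summed to 243 to 393, 49.5 to 70.4 and 23.0 to 28.1 CPM. The 6 granule cell markers rose in 4 cases, and their sum went from 1305 to 1470 CPM at P5 to 1895 to 2003 at P15 and 2098 to 2171 at P28. Of 10 oligodendrocyte markers 7 rose and 3 fell, with sums of 174 to 236, 1060 to 1839 and 878 to 1042 CPM. The 5 Cajal-Retzius markers (4 lower at P15; 105 to 144, 28.1 to 32.5 and 12.8 to 23.3 CPM) and the 5 endothelial and mural markers (5 lower; 55.0 to 102, 26.4 to 38.9 and 13.4 to 16.7 CPM) fell. Astrocyte (6 markers), microglia (5), interneuron (6), CA pyramidal (6) and mossy cell (5) markers summed at P15 to 246 to 351, 24.1 to 36.0, 250.4 to 302, 267 to 442 and 38.1 to 57.5 CPM. At P5 those sums were 258 to 306, 18.4 to 22.8, 144 to 169, 248 to 425 and 36.7 to 43.7 CPM. One Cajal-Retzius marker was at 0 at P21, and no other marker was at 0 in all libraries of an age. The part of these markers in the changes of the CRMP genes was not tested, and in such bulk libraries fewer cells of a type cannot be told apart from less RNA per cell.

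The transcripts of spectrin differed widely between libraries, and Sptan1 is on the list of CRMP binding partners. Sptan1 ranged at P5 from 1575 to 1947 CPM in batch A against 6254 and 7269 in batch B, and had 25710 to 39230 at P7 and 5429 to 20760 later. Spectrin thus differed with age and batch, and a fit with it as a covariate separates age less well. A call lost in such a fit does not show that a change is absent. With the mean log2 level of Sptan1 and Sptbn1 as a covariate, an alternative chosen after the data had been seen, the P5 to P15 calls of Dpysl3, Dpysl5, Crmp1 and Dpysl4 held and that of Dpysl2 did not (-0.53, adjusted p = 0.13). The call of Dpysl2 for P28 against P5 was lost as well (-0.48, adjusted p = 0.14). From P5 to P10 Dpysl2 (-0.27, adjusted p = 0.38) and Dpysl4 (-0.17, adjusted p = 0.36) did not pass in that fit. From P5 to P7 none of the 5 genes and none of the 15373 tested passed. Of the differences between the steps only that of Crmp1 passed with the covariate, and those of Dpysl3 (1.06, adjusted p = 0.1) and Dpysl5 (0.62, adjusted p = 0.17) did not.

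Genes of the CRMP pathway were counted from lists for P15 against P5, where the median log2 change of all genes was -0.02. Of all genes tested 31.8% were lower and 31.6% higher. CPM at P5 given for the genes of these lists are means ± SD over the 3 libraries of batch A. In the semaphorin 3 list (ligand, receptors and effectors) 11 of 20 genes were lower (31.8% of all genes) and 6 higher (31.6% of all genes), with a median of -0.84. The neuropilins Nrp1 and Nrp2, the plexins Plxna1, Plxna2 and Plxna3 and the adhesion co-receptors L1cam and Chl1 were among the lower ones, while Plxna4 (0.17, adjusted p = 0.027) and the co-receptor Nrcam (0.26, adjusted p = 0.00081) were higher. L1cam had the lowest change, -2.14 (SE 0.14, adjusted p = 2.5e-09), from 460.4 ± 29.1 CPM at P5 to 104 ± 5.07 at P15, and Farp1, a Rac exchange factor, had -2.05 (SE 0.09, adjusted p = 4.4e-15). Chn1, a Rac GTPase-activating protein, rose by 2.74 (SE 0.10, adjusted p = 4e-15) from 291 ± 6.43 CPM to 1944 ± 40.3, and Mical2, an actin-oxidizing enzyme, by 1.18 (SE 0.06, adjusted p = 7e-15).

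Of 18 genes on the list of CRMP kinases 7 rose and 6 fell, with a median of 0.18. Of all genes 31.6% were higher and 31.8% lower. The list also holds the Cdk5 activators Cdk5r1 and Cdk5r2 and the GTPase Rhoa. Camk2a, the calcium-dependent kinase of mature excitatory synapses, rose by 1.83 (SE 0.08, adjusted p = 1.1e-15) from 1781 ± 59.2 to 6351 ± 66.0 CPM, and Camk2b rose by 0.94 (SE 0.06, adjusted p = 2.6e-12). Yes1, a Src family kinase, changed by -0.46 (SE 0.12, adjusted p = 0.0021). Gsk3b changed by -0.41 and Cdk5 by 0.23, both past the threshold and named here after their values were seen, since they are the best known CRMP kinases. Among 13 phosphatases, proteases and SUMO enzymes 4 rose and 5 fell, beside 31.6% and 31.8% of all genes, with a median of -0.05. The calpain subunit Capn2, a protease that cleaves CRMPs, changed by -1.27 (SE 0.11, adjusted p = 1.6e-09) and the PP2A subunit Ppp2r2b by -1.10 (SE 0.19, adjusted p = 0.00015), while the SUMO protease Senp2 rose by 0.63 (SE 0.05, adjusted p = 5.7e-11).

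Of 24 binding partners 23 could be tested, and 11 were higher and 10 lower, against 31.6% and 31.8% of all genes, with a median of 0.09. The sodium channel gene Scn9a had the lowest change (-2.76, SE 0.34, adjusted p = 2.9e-07; 7.33 ± 2.01 to 1.08 ± 0.44 CPM), followed by Vim, which encodes vimentin and is also in the progenitor list (-2.51, SE 0.11, adjusted p = 1.4e-15). Wasf1, the WAVE1 protein of actin assembly, rose by 1.15 (SE 0.06, adjusted p = 6.1e-14), and Sptan1 had the highest change (2.76, SE 0.30, adjusted p = 1.6e-06). On the list of other microtubule proteins of growing axons, which also holds Gap43, 14 of 18 genes were lower and 2 higher. Of all genes 31.8% were lower and 31.6% higher, and the list had a median of -0.53. Dcx, which stabilizes microtubules in migrating neurons, changed by -3.68 (SE 0.09, adjusted p = 2.4e-18) and Gap43, a growth cone protein, by -2.18 (SE 0.40, adjusted p = 0.00032). The plus-end protein Mapre3 rose by 0.78 (SE 0.06, adjusted p = 1.3e-11) and Dclk1 by 0.60 (SE 0.06, adjusted p = 6.5e-09). Dcx, Tubb3 and Stmn1 are also in the immature neuron list. Of the 5 pyrimidine enzymes and their relatives only 2 passed the filter on low counts, and Cad, of pyrimidine synthesis, was lower (-0.79, SE 0.10, adjusted p = 1.2e-07).

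**Figure D4:**
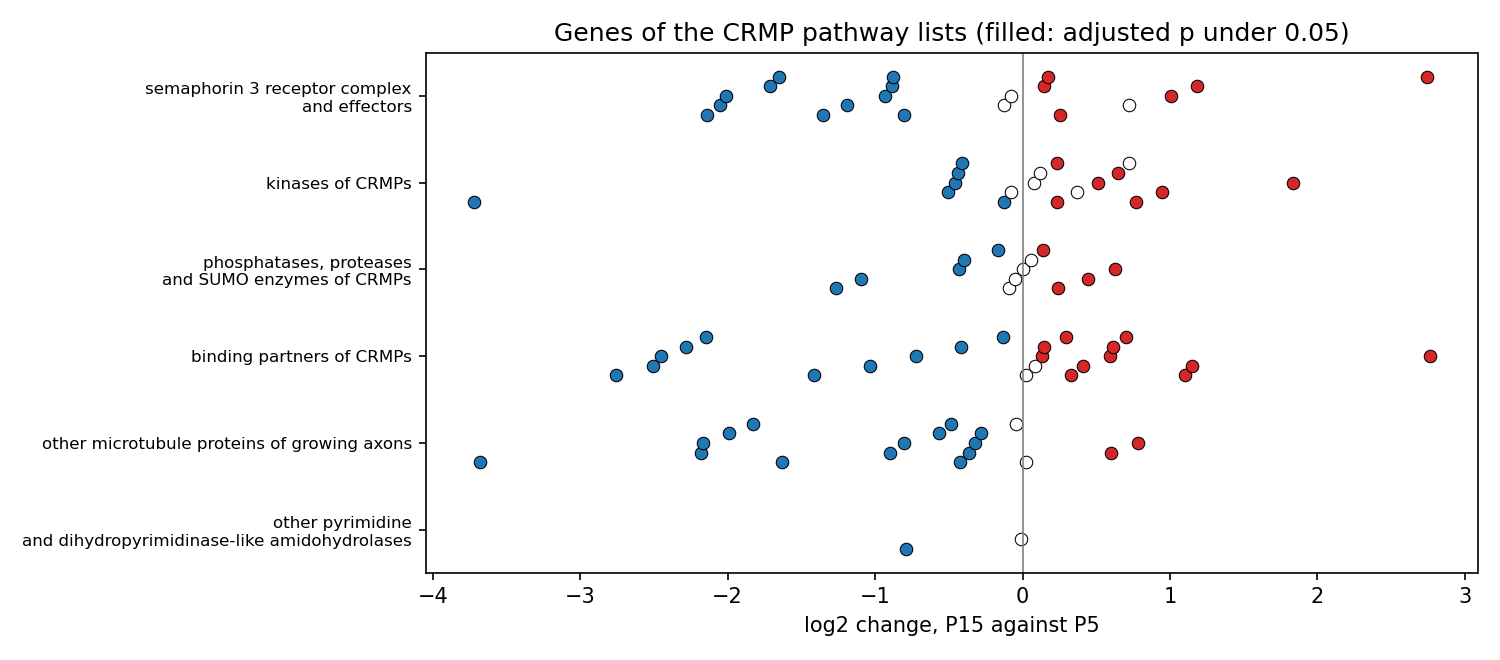
Log2 change from P5 to P15 of each tested gene of the pathway lists, 1 point a gene (blue lower, red higher, white not past the adjusted threshold). The microtubule list is lower in 14 of 18 cases, while the kinase list (7 higher, 6 lower) and binding partners (11 higher, 10 lower) lie on both sides. The leftmost point of the kinase list is Cdk1, with a mean of 4.44 CPM at P5 in batch A.

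The genes whose log2 CPM ran most like each member over the 20 libraries were sought among 10178 genes with a mean of at least 5 CPM. For Dpysl3 they were Trim67 (Pearson r = 0.998), Nrep (0.996) and Slc1a4 (0.995), and for Dpysl5 Nrep (0.997), Fnbp1l (0.996) and Trim67 (0.996). Crmp1 ran with the tubulin gene Tubb2b (0.996), Panx1 (0.995) and Robo1 (0.995), and Tubb2b went from 2065 CPM at P5 (both batches) to 375.5 at P15 and 218 at P28. Dpysl4 ran with Ppp1r14c (0.994), Tmem229b (0.993) and Kcnip1 (0.991). Dpysl2 had no equally close companion, with Stx7 at 0.948, Cadm1 at 0.946 and Itfg1 at 0.942. Among the members themselves Dpysl3 and Dpysl5 were closest (0.997) and Dpysl2 and Dpysl4 least close (0.678). These values describe libraries that share ages and batches and carry no test. By Spearman's rank none of the 3 genes recurred for any member, and without batch B 1 of 3 recurred for Crmp1 and Dpysl2 and 2 of 3 for the others.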

How the data were processed

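The deposited table holds raw counts per gene symbol for 20 libraries. Per the submitters' processing notes it was made with STAR 2.7.5b, featureCounts and SAMtools 1.10 on mm10. Annotation, strand setting and the handling of multi-mapping reads: not given in the sources used here. Isoforms are not separated. Of the symbols, 97.7% were found in GENCODE vM21, which gave coordinates and lengths. Total counts were 15.9 to 24.9 M, so 3 counts equal 0.122 to 0.181 CPM, a floor for counting error only.

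Tests used edgeR 4.0.16 (R 4.3.3) with TMM factors, its default filter by age (15373 genes), the robust quasi-likelihood fit and a Benjamini-Hochberg adjusted p under 0.05 over all genes. The model had 6 age means and a term for batch B, leaving 13 residual degrees of freedom. The P5 reference is thus batch A for P10 and later ages and batch B for P7. CPM is per TMM-scaled library. The test was tried on simulated counts. Libraries of the same age all differed by more than counting noise, with a chi-square between 3.70 and 40.7 per degree of freedom. Alternatives used DESeq2 1.42.0 and limma 3.58.1 (voom), other scalings and filters, single batches and each library left out.

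Named pathway genes are the 2 highest and 2 lowest log2 changes of a list from P5 to P15 among those past the threshold with at least 5 CPM in 1 of these ages; some genes under this rule are not reported here. Genes that ran like a member are the 3 with the highest Pearson r of log2 CPM (prior count 2), without predicted, pseudogene or sex-linked names. The members and lists were chosen with earlier results of these data known.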

Additional observations from a re-analysis of the deposited data

How the results depend on the processing

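The P5 to P15 and P5 to P10 calls of all 5 genes held in each alternative but the spectrin covariate. Of 1475 values of members under an alternative, 1413 kept their direction and their side of the threshold and 23 changed sign. All 23 had an adjusted p above the threshold in the main fit.

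Counts of genes past the threshold moved as follows. For P7 against P5 (1698), total-count scaling gave 3035, no batch term 3586, batch B alone 621 and the spectrin covariate 0. For P15 against P10 (670), DESeq2 gave 1007, no batch term 405 and the covariate 263. For P28 against P21 (39) no filter gave 64, DESeq2 165, limma-voom 19, no batch term 11, batch C alone 277 and the covariate 13. With the covariate P10 against P5 gave 3481 (9442), P15 against P5 3049 (9747), P28 against P5 4887 (11013), the P5 batches 12 (1548) and the difference of the steps 3051 (5664). Counts of members moved to 1 without the filter and 0 with the covariate for P7 against P5, to 3 with it for P10 against P5, to 1 with it for the difference of the steps, and to 1 for P28 against P21 in batch C alone. The cause was not tested.

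Under total-count scaling the median over all genes for P15 against P5 was -0.14 in place of -0.02, and 3836 of 9797 calls were higher, against 4856 of 9747. The split became 3586 of 9542 (4733 of 9442) for P10 against P5, 545 of 3035 (946 of 1698) for P7 against P5, 509 of 1697 (1023 of 1548) for the P5 batches and 3276 of 5536 (2369 of 5664) for the difference of the steps. It also let Dpysl4 pass for P7 against P5 (-0.22) and P10 against P7 (-0.19), and Dpysl4 passed for P10 against P7 with the stricter filter (-0.25, adjusted p = 0.0081) and with no batch term (-0.21, adjusted p = 0.0029) too. Signs changed under it for Dpysl2 from P15 to P21 (-0.014) and between the P5 batches for Crmp1 (-0.051), Dpysl3 (-0.0485) and Dpysl4 (-0.056). No batch term turned Dpysl2 from P7 to P10 to 0.077. The covariate turned Dpysl4 for P7 against P5 (0.014), Dpysl3 for P28 against P21 (-0.068), Dpysl5 between the P5 batches (0.42) and Dpysl4 in the difference of the steps (-0.070). DESeq2 let Dpysl2 pass from P10 to P15 (adjusted p = 0.047).

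With 1 library left out, the counts ran from 108 (without P10 replicate 3) to 1473 (without P10 replicate 2) for P15 against P10, where leaving out P10 replicate 1, P15 replicate 2 or P15 replicate 3 gave 209, 243 and 127. They ran from 518 to 1848 for P7 against P5 (518 and 1020 without P5 batch B replicates 1 and 3), 9 to 55 for P28 against P21 and 613 to 1848 for the P5 batches. Members called for P7 against P5 ran from 1 to 4. Values that changed sign ran from -0.14 to 0.070 for Dpysl2 (P10 against P7), -0.029 to 0.045 for Dpysl2 (P21 against P15) and -0.077 to 0.10 for Dpysl3 (P28 against P21). Between the P5 batches they ran from -0.015 to 0.12 for Dpysl3, -0.0034 to 0.0925 for Dpysl4 and -0.077 to 0.006 for Dpysl5. In the difference of the steps they ran from -0.087 to 0.30 for Dpysl2 and -0.014 to 0.072 for Dpysl4.

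Same-numbered libraries of different ages or P5 batches did not deviate together on average (mean correlation -0.02 over 57 pairs, -0.26 to 0.25). Pairs of different number had a mean of 0.008 over 114 pairs. With so few libraries in each age and batch, this cannot decide whether the numbers pair them. With the replicate number as a block, 1 member passed for P7 against P5 (Dpysl2 -0.33, Dpysl3 -0.65 and Dpysl5 -0.52 did not), 19 genes passed for P28 against P21, and no other call of a member changed.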
